A study of Mus musculus with 3 samples.

Results

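Cdh19 and 9 other cadherin genes were followed through RNA from reporter-positive cells of the mouse superior cervical ganglion. The 10 genes (Cdh1, Cdh2, Cdh3, Cdh4, Cdh5, Cdh6, Cdh10, Cdh11, Cdh13 and Cdh19) were picked by symbol, with their levels in these libraries already known, from a table of 52550 genes that holds 23 genes with a Cdh symbol. Their levels are therefore a description and carry no test. The cells came from male mice aged 10 weeks of the genotype LepRCRE::Ai32, in which Cre recombinase at the leptin receptor gene switches on Ai32, a channelrhodopsin fused to yellow fluorescent protein. Live fluorescent cells, labelled LepR+, were sorted and made into Smart-Seq2 libraries, a full-length method with PCR amplification. There were 3 libraries, labelled biological replicates 1, 2 and 3 of 1 group, and no control group. The reporter marks any cell in which Cre has been active. The sources used here do not give how many cells or mice each library holds, so p-values measure only the spread between these samples, which may be technical. Values are TPM, the share of a library's transcripts that a gene takes once its length is allowed for.

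Cadherins are adhesion proteins of the cell surface. Their outer domains bind calcium and pair with cadherins on a neighbouring cell, and the inner tail of the classical members binds beta-catenin and p120-catenin, through which the junction is tied to actin by alpha-catenin. The classical members fall into type I (Cdh1, Cdh2, Cdh3 and Cdh4, known as E-, N-, P- and R-cadherin) and type II (Cdh6, Cdh10, Cdh11 and Cdh19 here), Cdh5 is the cadherin of endothelial junctions, and Cdh13 has no inner tail and is held in the membrane by a lipid anchor. In peripheral nerve Cdh19 is known as a gene of Schwann cell precursors and glia.

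Because related genes could share reads, coding sequences were compared first. Cdh19 (ENSMUSG00000047216.8, chromosome 1, 110888326 to 110977584 of GRCm38, reverse strand) has a coding sequence of 2310 bases. None of its exonic bases, nor any of the other 9 genes' exonic bases, lay in an exon of another gene of GENCODE M21, an annotation of that build. Of the 2261 stretches of 50 bases in the Cdh19 coding sequence, 0 occurred in a transcript of another gene. This search was for exact matches and for Cdh19 alone. It left out the noncoding part of the 4280 exonic bases of Cdh19. The longest run that it shares with any other Cdh gene was 23 bases, with Cdh7, and among the 10 genes it was 17 bases, with Cdh10. The 72 coding bases around these runs are shown because they hold the longest run shared with any other Cdh gene. They lie in exon 3 of the 12 exons of the Cdh19 coding transcript (chr1:110949152-110949223, reverse strand). The longest runs of Cdh6 and Cdh20, of 14 bases each, also lie there. Those of some other Cdh genes lie elsewhere in the coding sequence, such as 16 bases each for Cdh2 and Cdh4. The matching stretches are at chr15:18964180-18964251 in Cdh10 (forward strand), chr15:13064308-13064379 in Cdh6 (reverse strand), chr1:110049012-110049083 in Cdh7 (forward strand) and chr1:104941227-104941298 in Cdh20 (forward strand), each within 1 exon. All are written 5′ to 3′ on the coding strand and were set beside each other without gaps. Capitals in the Cdh19 line mark bases that all 5 genes share, and capitals in the other lines mark bases equal to those of Cdh19.
Cdh19: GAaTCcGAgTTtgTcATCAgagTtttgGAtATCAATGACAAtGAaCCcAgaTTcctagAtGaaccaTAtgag
Cdh10: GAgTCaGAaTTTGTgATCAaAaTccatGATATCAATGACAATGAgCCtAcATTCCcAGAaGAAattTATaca
Cdh6: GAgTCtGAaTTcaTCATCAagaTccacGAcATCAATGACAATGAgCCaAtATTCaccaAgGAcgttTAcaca
Cdh7: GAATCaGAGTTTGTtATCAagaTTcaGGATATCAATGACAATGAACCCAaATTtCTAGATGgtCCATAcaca
Cdh20: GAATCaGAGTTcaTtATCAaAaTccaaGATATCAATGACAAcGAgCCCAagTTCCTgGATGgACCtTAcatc
Of these 72 bases, 51 were equal to Cdh19 in Cdh10, 43 in Cdh6, 57 in Cdh7 and 51 in Cdh20. The bases shared by all 5 numbered 38.

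The sorted cells were rich in RNA of some glial markers. The 11 glial markers summed to 28920.0, 24460.0 and 25070.0 TPM in replicates 1, 2 and 3, and 9 of them had at least 1 TPM in each library. Most of these sums came from Fabp7, at 16340, 13140 and 13010 TPM, and Apoe, at 9528, 8061 and 9214 TPM. Foxd3, at 8.63, 13.2 and 0.225 TPM, and Gfap, with 30, 0 and 1 reads, did not reach 1 TPM in each library. By title the study is of perineurial cells, which form a barrier around nerves. The 9 perineurial markers summed to 313, 562 and 437 TPM, with Cldn1, a barrier claudin, at 216, 246 and 221 TPM in the libraries, and Krt19 without a read. The sums were 4500.0, 6229 and 6621 TPM for 9 fibroblast markers, 331, 420 and 270 TPM for 9 endothelial markers and 441, 333 and 127 TPM for 8 mural markers. For 8 neuron markers they were 35.9, 109 and 307 TPM, for 7 macrophage markers 1.85, 85.1 and 103 TPM, and for 6 epithelial markers 1.67, 35.4 and 160 TPM. Single genes weighed heavily in some sums. Slc18a2 alone had 34.4, 49.1 and 281.5 TPM of the neuron sums, and Dcn and Lum gave most of the fibroblast sums. At least 1 TPM in each library was reached by 3 of 9 perineurial and 7 of 9 fibroblast markers. It was reached by 1 of 8 neuron, 0 of 7 macrophage and 0 of 6 epithelial markers. In bulk RNA, fewer cells of a type and less RNA per cell cannot be told apart.

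Cdh19 had 3995, 3330.0 and 5061 TPM in replicates 1, 2 and 3, from 43689, 36476 and 51837 recovered reads. All 3 libraries were high, and the highest was 1.52-fold above the lowest. Its mean was 4129 ± 873 TPM (SD, n = 3). That was 0.400%, 0.333% and 0.506% of all TPM, and among nuclear-encoded genes Cdh19 ranked 11, 14 and 6. The log2 range over libraries was 0.60 for Cdh19, against a median of 1.92 over the 6479 nuclear genes that had 1 TPM or more and a read in all 3 libraries.

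Cdh19 outweighed the rest of the family. It made up 90.3%, 93.7% and 95.8% of the summed TPM of the 10 genes, a mean of 93.3% ± 2.78 (SD, n = 3). The 9 others together had 429, 223 and 222 TPM, and Cdh19 stood 9.31-, 14.9- and 22.8-fold above that sum. The second gene differed by library: it was Cdh6 in replicate 1, where Cdh19 was 25.5-fold higher, and Cdh11 in replicates 2 and 3, where it was 42.3- and 45.6-fold higher. At least 1 TPM in each library was reached by 6 of the 10 genes, Cdh19, Cdh11, Cdh2, Cdh10, Cdh5 and Cdh1. Of all 27567 genes with a read, 23.6% reached it. Since the 10 genes were picked with these levels known, nothing is read from that difference.

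**Figure D1:**
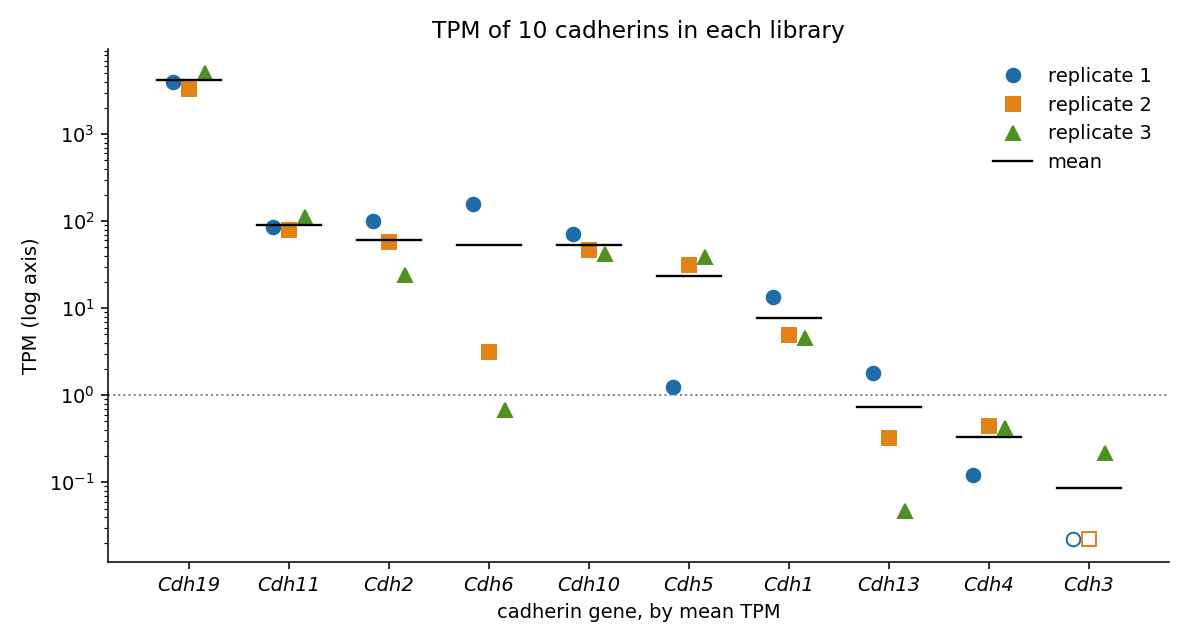
TPM on a log axis for the 10 cadherins in each of the 3 libraries (points), with the mean (line), the level of 1 TPM (dotted) and open points where no read was recovered. Cdh19 lies between 3330.0 and 5061 TPM, above every other gene in every library, and Cdh6 and Cdh5 are split between libraries.

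Among the type II cadherins, Cdh11, a cadherin of mesenchymal cells and fibroblasts, had 84.6, 78.7 and 111 TPM from 1924, 1793 and 2363 reads. It was high in all 3 libraries, at 91.4 ± 17.2 TPM (SD, n = 3), and its range did not touch that of Cdh19. The ratio of Cdh19 to Cdh11 moved little: Cdh19 was 47.2-, 42.3- and 45.6-fold higher, a log2 difference of 5.49 ± 0.08 (SD, n = 3). For the other 8 genes the SD of that log2 difference lay between 0.55 for Cdh10 and 4.17 for Cdh6. Of the 6478 nuclear genes other than Cdh19 at that level, 33 (0.509%), with Cdh11 counted among them, had an SD at or below that of Cdh11. With 3 libraries such an SD is itself imprecise, and the pair was singled out after its values were seen.

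Cdh10, a type II cadherin best known from the brain, had 70.6, 46.6 and 42.5 TPM from 1813, 1199 and 1022 reads. All libraries lay within 1.66-fold of each other, and the mean was 53.2 ± 15.2 TPM (SD, n = 3). Cdh6, a type II cadherin of kidney and of developing neural crest, had 157, 3.15 and 0.675 TPM. It was the second highest of the 10 genes in replicate 1 and below 1 TPM in replicate 3, a 232-fold spread. Its mean of 53.5 ± 89.3 TPM (SD, n = 3) rests on replicate 1, without which it was 1.92 TPM. Reads for Cdh6 could not be recovered with an M21 length, so its TPM is given alone. The means of Cdh6 and Cdh10 are close, yet Cdh10 was the higher in replicates 2 and 3 and the lower in replicate 1.

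Among the type I cadherins, Cdh2, which joins neurons and glia and is also made by fibroblasts and muscle, had 101, 57.7 and 23.9 TPM from 2072, 1190 and 462 reads. It was highest in replicate 1 and lowest in replicate 3, a 4.20-fold spread, with a mean of 60.7 ± 38.4 TPM (SD, n = 3). Cdh1, known from epithelia and from the membrane folds of myelinating Schwann cells, had 13.5, 4.89 and 4.59 TPM from 157, 57 and 50 reads. Its mean was 7.65 ± 5.03 TPM (SD, n = 3), and without replicate 1 it was 4.74 TPM. Replicate 1 was the high library for Cdh1, whereas among the 6 epithelial markers Epcam, an epithelial adhesion protein, had 0.815, 0.623 and 160 TPM and was high in replicate 3. Krt18 was high in replicate 2, at 33.8 TPM, and the other 4 epithelial markers were below 1 TPM in all 3 libraries.

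Cdh4 and Cdh3 were near the limit of these libraries. Cdh4, the R-cadherin of retina and brain, had 2, 8 and 7 reads, or 0.121, 0.444 and 0.417 TPM. Cdh3, the P-cadherin of placenta and skin, had 0, 0 and 2 reads, where 3 reads, the limit that a count of 0 allows, would be 0.268, 0.267 and 0.286 TPM. Reads are PCR copies, so this limit covers counting error only. For Cdh3 no fold is given.

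Cdh5 and Cdh13 are tied to vessels in other tissues. Cdh5, the VE-cadherin of endothelial junctions, had 1.23, 31.6 and 38.4 TPM from 13, 340 and 386 reads. Replicate 1 was low and the others were alike, so that the mean of 23.8 ± 19.8 TPM (SD, n = 3) describes no library. Of the 9 endothelial markers, 4 (Flt1, Kdr, Pecam1 and Egfl7) were also lowest in replicate 1, while their summed level was lowest in replicate 3. Emcn, a surface mucin of venous and capillary endothelium, had 237, 135 and 146 TPM and was highest where Cdh5 was lowest. Tek, the angiopoietin receptor, had 45.5, 80.9 and 13.6 TPM, and Flt1, a receptor for vascular endothelial growth factor, had 21.5, 47.7 and 46.4. At least 1 TPM in each library was reached by 7 of the 9, and 0 were without a read. The part of endothelial cells in the Cdh5 values was not tested.

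Cdh13, a lipid-anchored cadherin of endothelium and smooth muscle that binds adiponectin, had 1.82, 0.322 and 0.0465 TPM from 52, 9 and 1 reads. It was above 1 TPM in replicate 1 only, and its mean of 0.730 ± 0.955 TPM (SD, n = 3) came to 0.184 TPM without that library. Replicate 1 was also the highest library for Rgs5, a pericyte gene, at 225, 124 and 33.8 TPM. The same held for Acta2, smooth muscle actin, at 158, 37.6 and 15.8 TPM, and narrowly for Notch3, at 1.62, 1.52 and 0.4805 TPM. Mcam, a vessel adhesion protein, was highest in replicate 2, at 33.8, 150 and 45.3 TPM, as was Myh11. Abcc9, at 21.1, 14.9 and 30.6 TPM, and Kcnj8, with 0, 0 and 2 reads, were highest in replicate 3. In the mural list as a whole 4 of 8 genes had at least 1 TPM in each library, and Tagln had no read. The part of mural cells in the Cdh13 values was not tested.

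**Figure D2:**
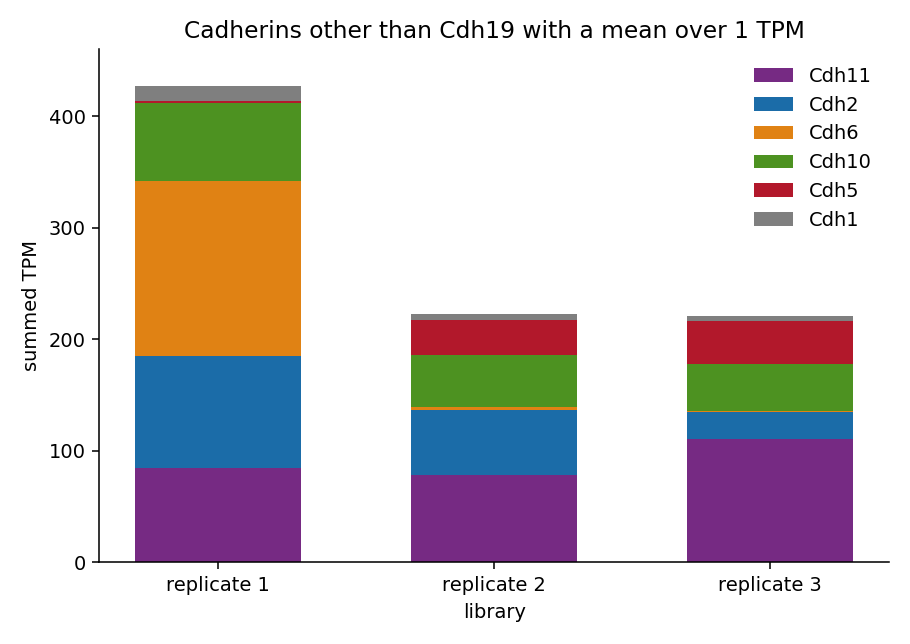
Summed TPM of the 6 cadherins other than Cdh19 with a mean above 1 TPM, stacked for each library, on an axis from 0. Cdh6 takes 157 TPM in replicate 1 and 3.15 or less in the others, Cdh5 takes 31.6 and 38.4 TPM in replicates 2 and 3, and Cdh11 and Cdh10 are present in all 3.

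By mean TPM the order was Cdh19, Cdh11, Cdh2, Cdh6, Cdh10, Cdh5, Cdh1, Cdh13, Cdh4 and Cdh3. The ranges of Cdh19 and Cdh11 over libraries did not overlap, and neither did those of Cdh10 and Cdh5 or of Cdh1 and Cdh13. The neighbours Cdh11 and Cdh2 overlapped, with a log2 difference of 0.80 ± 1.27 (SD, n = 3) that is smaller than its spread. Cdh2 and Cdh6 (2.90 ± 3.10), Cdh6 and Cdh10 (-2.90 ± 3.66), Cdh5 and Cdh1 (0.77 ± 3.66) and Cdh13 and Cdh4 (0.09 ± 3.57) were likewise within their spread. Cdh10 lay above Cdh5 in each library, though by 2.18 ± 3.17 on the log2 scale. By mean log2(TPM + 1), which weighs a single high library less, Cdh6 moved from the fourth place to the sixth.

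The remaining 13 Cdh genes were mostly low. At 1 TPM in no library were 10 of them, and 3 reached it in 1 or 2 libraries. Cdh20, a type II cadherin on the same chromosome as Cdh19, had 29.0, 42.6 and 0.130 TPM from 297, 437 and 1 reads. Cdh15, the M-cadherin of muscle, had 0, 1 and 700 reads, and so 90.0 TPM in the last library. Cdh24, named after its values were seen, had 0.179, 22.2 and 0.191 TPM. Each of these was high in 1 or 2 libraries and near the limit in the rest. Together the 13 genes summed to 30.0, 65.9 and 91.8 TPM. Over all 23 genes Cdh19 had a share of 92.0%.

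Some Cdh genes that lie near each other had unlike levels. Cdh7, the nearest Cdh gene to Cdh19 with 748 kb between them, had 0, 6 and 1 reads. On chromosome 8, Cdh3 and Cdh1 are 46 kb apart, and Cdh1 had 157, 57 and 50 reads where Cdh3 had 0, 0 and 2. On chromosome 15, Cdh9, the neighbour between Cdh6 and Cdh10, had no read, and Cdh18 had none either.

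**Figure D3:**
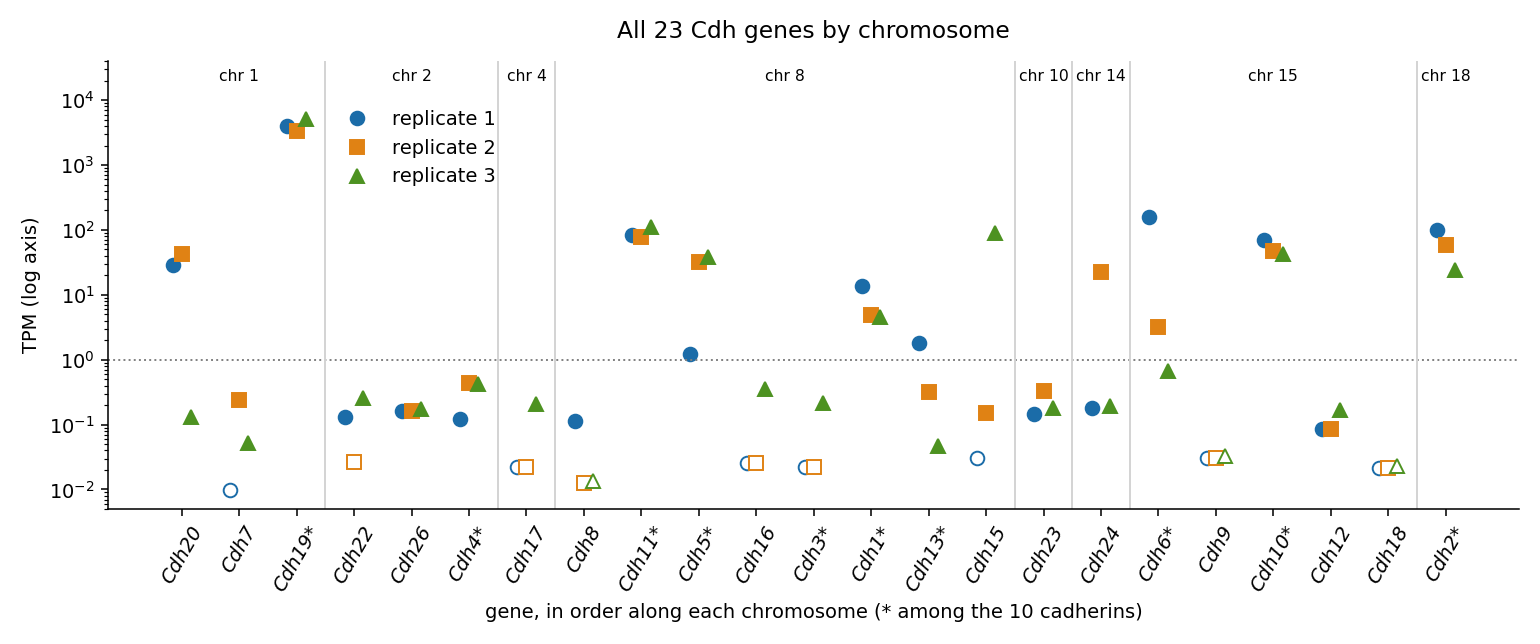
TPM on a log axis for all 23 Cdh genes in each library, in order along each chromosome, with the level of 1 TPM (dotted) and open points where no read was recovered. Only Cdh19 of the chromosome 1 genes is high in all 3 libraries, and Cdh15, Cdh24 and Cdh6 are each high in 1 library.

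By mean TPM, Cdh19 was below Fabp7, a fatty acid binding protein of glia, and Apoe, a lipid carrier of satellite glia and above the other 9 glial markers. S100b and Sox10 were named after their values were seen. Over S100b, a calcium-binding protein of Schwann cells, Cdh19 was 7.62-, 7.21- and 7.57-fold higher in the libraries. Over Sox10, the transcription factor of peripheral glia, it was 149.5-, 20.2- and 98.0-fold higher, as Sox10 had 26.7, 165 and 51.6 TPM. Glial markers thus differed in how closely their levels followed Cdh19 from library to library.

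The 5 genes most like Cdh19, by the smallest root mean square difference in log2 TPM over the 3 libraries, were Malat1 (0.28), Fth1 (0.33), Dcn (0.39), Cd9 (0.46) and Itm2b (0.49). Malat1, a nuclear noncoding RNA, had 4298, 3991 and 3861 TPM, and Dcn, a matrix proteoglycan of fibroblasts, had 3166, 4433 and 3774. Fth1 is the ferritin heavy chain, Cd9 a tetraspanin and Itm2b a membrane protein, with means of 4269, 2992 and 3929 TPM. This measure mainly finds genes of the same level, and it says nothing of shared function.

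**Figure D4:**
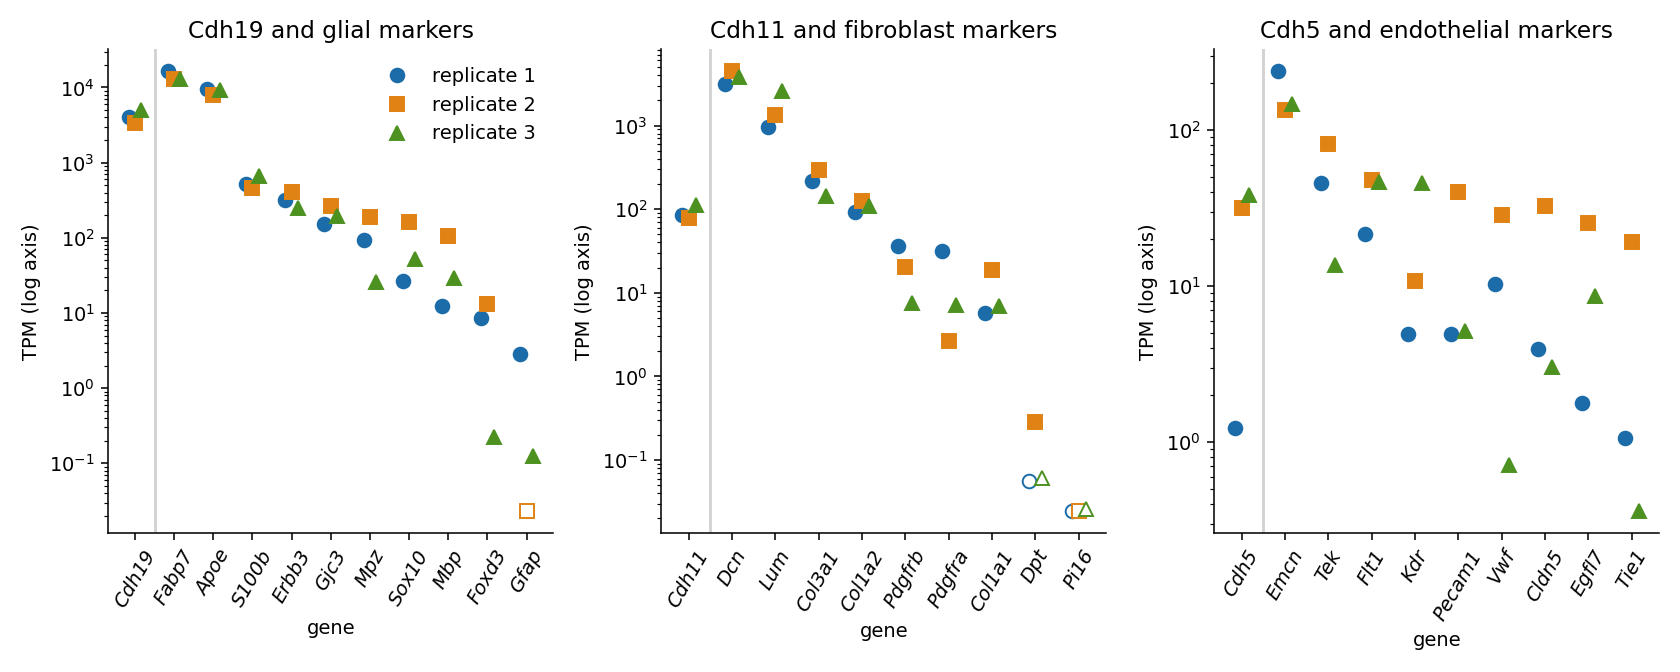
TPM on log axes in each library for Cdh19 beside 10 glial markers, Cdh11 beside fibroblast markers and Cdh5 beside endothelial markers, with open points where no read was recovered. Cdh19 and Cdh11 are tight over libraries, and Cdh5 is low in replicate 1, at 1.23 TPM, where Emcn is at 237 TPM.

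Partners and relatives of the cadherins, none of them among the 10 genes, were tested against a level of 1 TPM in the fit of all genes (limma's moderated test of log2(TPM + 1), two-sided, Benjamini-Hochberg over 27567 genes, threshold 0.05). Of all genes tested, 16.4% lay above 1 TPM and 19.9% below it. Of 95 genes in 7 lists, 20 were above, 27 below, 38 neither and 10 had no read, and the median of those with a read was 1.28 in log2(TPM + 1) against 0.88 over all genes. Without replicate 1 or without replicate 2 limma called 0 of the 95 above, with 21 and 18 at an unadjusted p under 0.05, and without replicate 3 it called 15. Without replicate 1, without replicate 2, or without mitochondrially encoded genes it called 0 below, with 30, 32 and 30 unadjusted, and without replicate 3 it called 16.

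On the inner side of the junction, of 16 catenins and adaptors 8 were above 1 TPM, 1 below and 7 neither, with a median of 3.75 in log2(TPM + 1). Without replicate 3 limma called 5 of them above. Ctnna1, the alpha-catenin that meets actin, had 305, 626 and 416 TPM with a log2(TPM + 1) that exceeded its value at 1 TPM by 7.75 (SE 0.28, limma, adjusted p = 0.00387). Ctnnb1, beta-catenin, had 278, 190 and 299 TPM (adjusted p = 0.00364 in limma's test). Both were high in each library. Vcl, vinculin, which strengthens junctions under tension, had 67.1, 79.2 and 72.7 TPM, and Ctnnal1, an alpha-catenin relative, had 210, 140 and 69.3. The neural delta-catenin Ctnnd2 had 85.0, 11.8 and 26.6 TPM (limma, adjusted p = 0.0412, and 0.0699 when only genes with 0.5 TPM or more on average were tested). At a level of 5 TPM its adjusted p by limma was 0.053, and without replicates 1, 2 and 3 in turn it was 0.0842, 0.0839 and 0.194. Afdn, the afadin that links nectins to actin, had 29.5, 80.6 and 0.705 TPM and passed neither way (limma, adjusted p = 0.181, and 0.0143 with a mean-variance trend). Ctnnd1, p120-catenin, named after its values were seen, had 18.3, 17.9 and 12.8 TPM, below Ctnnb1 in each library.

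Desmosomes, the cadherin junctions that anchor keratins and other intermediate filaments, had low levels. Of 13 desmosome genes limma called 0 above 1 TPM (0 unadjusted, 0 with a trend), while 7 were below, 2 neither and 4 had no read. Pkp2, a plakophilin, was the exception in a single library, with 3, 1 and 224 reads and 17.5 TPM in replicate 3. Of the 13 other Cdh genes limma called 0 above (0 unadjusted, 0 with a trend), 8 below and 3 neither, and 2 had no read. Without replicate 3, Cdh20 was above (limma, adjusted p = 0.0429). Cdh20 and Cdh15, described earlier, passed neither way over all 3 libraries (limma, adjusted p = 0.240 and 0.602).

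Protocadherins lack the catenin-binding tail. Of 12 non-clustered protocadherins, 4 were above 1 TPM, 3 below and 5 neither, with a median of 2.67 in log2(TPM + 1). Pcdh10 had 77.2, 50.9 and 63.3 TPM (limma, adjusted p = 0.00417), Pcdh7 had 42.5, 73.7 and 38.8, and Pcdh19 had 13.9, 14.1 and 8.56. Leaving out any 1 library ended the call of Pcdh7, with limma's adjusted p at 0.0783, 0.0653 and 0.052. Without replicate 1 or replicate 2 the call of Pcdh10 ended too (limma, adjusted p = 0.0703 and 0.0677), as for every listed gene. Without replicate 3 Pcdh10 kept it (limma, adjusted p = 0.0399). By mean, Pcdh10 (63.8 TPM) was near Cdh10 (53.2 TPM) and Cdh2 (60.7 TPM), though in replicate 3 Pcdh10 had 63.3 TPM and Cdh2 23.9 TPM. Pcdh9 had 115, 102 and 13.8 TPM (limma, adjusted p = 0.0412, and 0.0692 with the low genes left out). Others were uneven: Pcdh20 had 281, 0 and 0 reads and Pcdh11x had 3.07, 0.595 and 39.8 TPM.

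Of 18 atypical cadherins, such as the large Fat and Dchs proteins and the calsyntenins, 1 was above 1 TPM, 7 below, 8 neither and 2 without a read, with a median of 0.52 in log2(TPM + 1). The gene above was Clstn1, a calsyntenin of vesicle transport (limma, adjusted p = 0.0309), which had a mean of 29.6 ± 17.6 TPM (SD, n = 3). Leaving out any 1 of the 3 libraries ended that call, with limma's adjusted p at 0.0783, 0.12 and 0.106. With a pseudocount of 0.1 or 0.5 limma called 2 of the 18 above. Fat1, named after its values were seen, had 27.5, 9.02 and 4.68 TPM and passed neither way (limma, adjusted p = 0.0509). Clstn2 had 0, 280 and 42 reads and Fat3 had 1, 5 and 1123 reads, so most reads of each came from 1 library.

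Cadherins are cut at the surface by the protease Adam10 and then inside the membrane by gamma-secretase. Of 14 genes of cleavage, 4 were above 1 TPM, 0 below (1 unadjusted, 1 with a trend) and 10 neither, with a median of 3.04 in log2(TPM + 1). With a trend limma called 7 above. Adam10 had 225, 260.2 and 394 TPM with a log2(TPM + 1) that exceeded its value at 1 TPM by 7.16 (SE 0.24, limma, adjusted p = 0.00366). Adam17, a related protease, had 94.8, 106 and 50.2 TPM. Of the gamma-secretase subunits, Psenen had 126, 114 and 43.7 TPM and Ncstn a mean of 13.1 ± 7.08 TPM (SD, n = 3), both above. Pcsk6, a proprotein convertase, had 3, 4 and 1060 reads.

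Of 9 transcription factors listed as repressors of cadherin genes, best known for silencing Cdh1 in epithelia, 3 were above 1 TPM, 1 below, 3 neither and 2 without a read, with a median of 3.30 in log2(TPM + 1). Zeb2 had 159, 180 and 173 TPM (limma, adjusted p = 0.00364), the tightest of the list. Zeb1 had 96.9, 36.5 and 65.0 TPM, and Tcf4, which also has many other roles, had 52.0, 19.4 and 47.6. Neither call held when any 1 library was left out: limma's adjusted p was then 0.0783, 0.0679 and 0.0826 for Zeb1 and 0.0805, 0.0653 and 0.0979 for Tcf4. Without replicate 3 limma called 1 of the 9 above. Tcf3 had 64.8, 0.314 and 10.1 TPM and passed neither way (limma, adjusted p = 0.261).

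**Figure D5:**
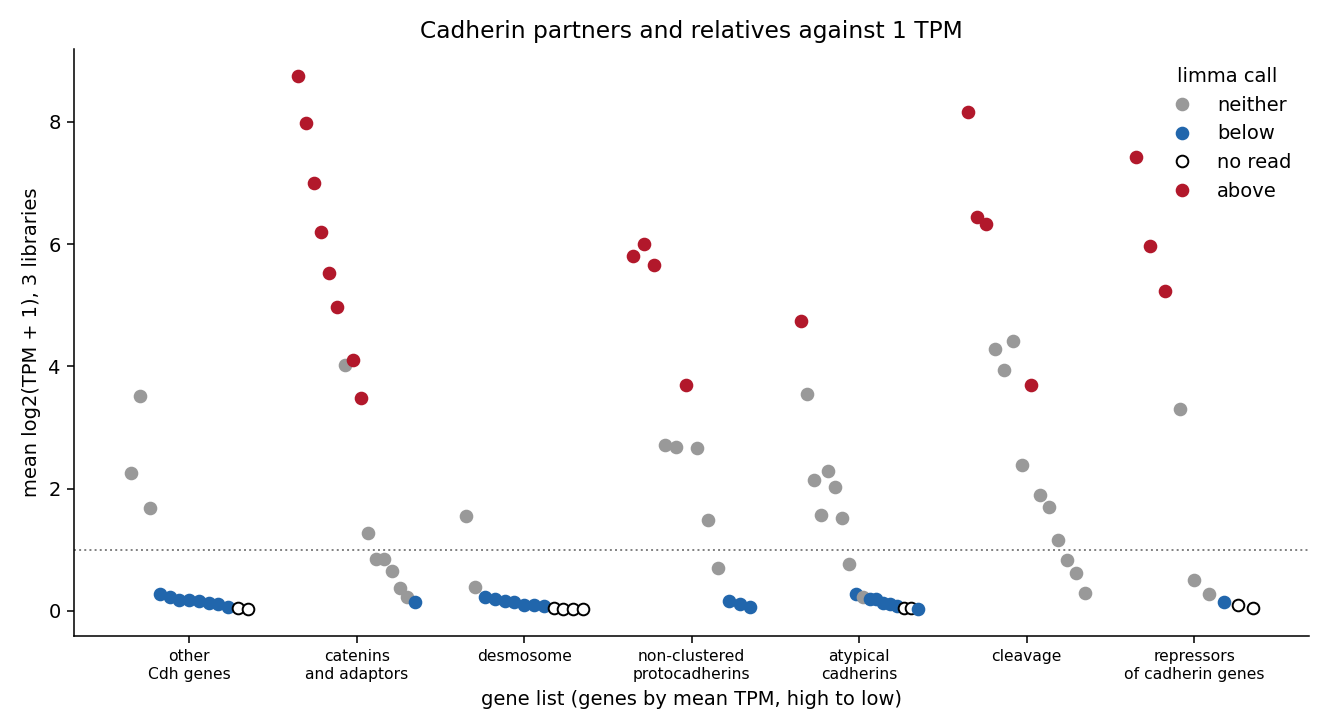
Mean log2(TPM + 1) over 3 libraries for each gene of the 7 lists, coloured by limma's call against 1 TPM (dotted line, adjusted p threshold 0.05), with open points for genes without a read. Above are 8 of 16 catenins and adaptors, 4 of 14 cleavage genes and 4 of 12 protocadherins, and 12 of 13 desmosome genes lie under the dotted line.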

How the data were processed

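RNA was measured in 3 libraries of 1 group. The authors deposited log2 TPM for 52550 genes, and each column sums to 1000000 on the linear scale. The submitters' processing notes name STAR, featureCounts, mm10 and GRCm38. The sources used here do not give versions, annotation, strand setting or filters. Without a known strand setting, antisense reads cannot be told apart.

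The lowest values step as if 0.25 of a read were added to every gene before scaling. With exon lengths from GENCODE M21, whole reads within 0.02 of a read were recovered for 49791 genes (94.75%), 7299728, 7076883 and 6778130 reads in replicates 1, 2 and 3. For 2758 other genes a length that gives whole reads was solved, and as it need not be the only one it served to find genes with a read (27567 kept, 24983 left out). Mitochondrially encoded genes took 19.88%, 20.37% and 21.12% of TPM. A single read on 1 kb was worth 0.391, 0.391 and 0.418 TPM.

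limma 3.58.1 (R 4.3.3) tested mean log2(TPM + 1) against its value at 1 TPM, with prior degrees of freedom of 1.10. It was tried on simulated data in which each gene's SD over the 3 libraries stood as its true spread. There it recovered the mean differences but missed many of the changed genes. As an SD from 3 libraries is imprecise, the simulation may misstate that loss. A gene that passed neither way may still differ from 1 TPM. The pseudocount of 1 shrinks differences of low genes. Other steps used Python 3.11.15. Members and lists were chosen with earlier results of these data known. Some genes that the rule for names picks are not reported here. Named were the 10 cadherins, per list the up to 4 highest genes above 1 TPM and up to 2 others with at least 10 TPM in 1 library and the widest range, up to 3 markers a list, and the 5 genes most like Cdh19. Further markers were named after their values were seen. The alternatives were the pseudocount, the filter, a trend, the level, rescaling, gene length, the gene set and leaving out each library.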

Additional observations from a re-analysis of the deposited data

How the results depend on the processing

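Rescaling multiplies all genes of a library by the same factor, so it cannot change the share of Cdh19 among the 10 cadherins. Taken over all Cdh genes, the share kept within its spread over libraries. Leaving out 1 library gave a share among the 10 of 92.0% to 94.8%. It was 87.6% when values were not divided by gene length, computed with M21 lengths. Without mitochondrially encoded genes the mean of Cdh19 was 5195 TPM and that of Cdh11 115 TPM, since all other genes gain when these are left out. Without 1 library Cdh19 had 3663 to 4528 TPM, and 6 to 7 of the 10 genes reached 1 TPM in each library, with 4 at a level of 5 TPM.

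Leaving out 1 library gave 0 to 2455 genes above 1 TPM by limma (4640, 4439 and 4536 at an unadjusted p under 0.05 without replicates 1, 2 and 3) and 0 to 5141 below. For the 95 listed genes it gave 0 to 15 above and 0 to 16 below. A filter at a mean of 0.5 TPM gave 15 genes below, and 0 of the listed ones, as low genes were left out. No filter gave 29850 and 41, a mean-variance trend 9911 genes, a level of 5 TPM 14098 genes, and leaving out mitochondrially encoded genes 0 and 0 (6775 and 30 unadjusted). For calls below, the cause of that last loss was not tested.

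None of the genes whose direction turned had passed the test. At a level of 5 TPM the log2 difference turned to -0.33 for Cdh15, -1.04 for Pkp2, -1.10 for Pcdh20, -0.45 for Clstn2, -1.03 for Fat3 and -0.20 for Pcsk6. A pseudocount of 0.1 turned Pkp2 (-0.08), Pcdh20 (-0.75) and Fat3 (-0.45). With 1 library left out, the difference ran from -0.88 to 2.35 for Cdh15, -0.78 to 1.26 for Pkp2, -0.92 to 1.32 for Fat3 and -0.64 to 2.42 for Pcsk6, each lowest without replicate 3, and from -0.97 to 1.21 for Pcdh20, lowest without replicate 1. Without replicate 3, Fat3 passed below (limma, adjusted p = 0.0431). No paired analysis was possible because there is 1 group. Depth limits Cdh3, Cdh4 and Cdh13, which had 10 or fewer reads in at least 1 library.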
